A study of Bos taurus with 16 samples.

Results

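Transcripts of 8 genes that carry the insulin signal in the cell were examined in precision-cut liver slices (PCLS) of dairy cows: the insulin receptor INSR, the receptor substrates IRS1 and IRS2, the phosphoinositide 3-kinase (PI3K) subunit PIK3R1, the kinases AKT1 and AKT2, and the forkhead transcription factors FOXO1 and FOXO3. They were taken by symbol from a count table of 28786 gene names, which held all 8, and all 8 were among the 19824 genes that passed the filter of more than 4 counts in at least 1 library. The study took slices from 4 Jersey cows early after calving, kept them in William's Medium E for 18 h, and compared agonists of the 3 peroxisome proliferator-activated receptors (PPAR), nuclear receptors that bind fatty acids, with control. Control slices received 0.8% DMSO alone. The agonists were given in the same 0.8% DMSO: WY-14643 at 100 µM for PPARα, GW-501516 at 50 µM for PPARδ, and rosiglitazone at 100 µM for PPARγ. Every cow gave 1 library per treatment, and the 12 libraries of cows 581, 576 and 567, 3 per group, were tested. Cow 574 was left out of the tests, as the study left out 1 animal for degraded RNA.

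Insulin bound to its receptor switches on the receptor's tyrosine kinase, which phosphorylates the docking proteins IRS1 and IRS2. These recruit PI3K through its regulatory subunit, the lipid product of PI3K brings the AKT kinases to the membrane, and AKT phosphorylates FOXO proteins so that they leave the nucleus. In fasting liver FOXO1 is nuclear and drives genes such as IGFBP1, whereas insulin after feeding silences them, and cows in early lactation have low circulating insulin. Most of these steps run through protein phosphorylation, which was not measured here.

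The 12 libraries held 3.08e6 to 1.02e7 counts in genes, of which the 18S ribosomal RNA gene RN18S1 took 11.9 to 63.8%. One library stood apart. The PPARδ agonist library of cow 576 had 63.8% of its counts in RN18S1 and 9993 genes detected, against 12933 to 17461 in the others, so results that rest on it are also given without it. In the labels 3 libraries bear a mark whose meaning is not stated: cow 581 with the PPARα and with the PPARδ agonist, and cow 567 with the PPARα agonist. Depth was not even across groups, at 3.08e6 to 4.03e6 counts in control slices and 4.88e6 to 1.02e7 in PPARα agonist slices. Hepatocyte markers were present in every library and summed to 2037 to 5177 CPM in control slices and to 1637 to 9397 CPM in the agonist groups. None of 10 was called by edgeR, and 1 was called lower by DESeq2, for the PPARα agonist, where 1.64% of all genes were called. With the cow as a block, 2 were called higher and 1 lower for the PPARα agonist and likewise for the PPARδ agonist. For the PPARγ agonist 3 were called higher. In that fit 2.68%, 2.03% and 2.86% of all genes were called for the 3 agonists. Slices hold several cell types, and fewer cells of a type cannot be told apart from less RNA per cell.

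Levels are given as CPM, counts scaled by TMM to a common library size. The libraries were made from the 3' ends of transcripts, about 1 fragment per transcript whatever its length, so the CPM of different genes were set side by side without division by length. In control slices PIK3R1 was the most abundant of the 8 transcripts at 100.1 ± 16.3 CPM (SD, n = 3). FOXO1 (74.5 ± 25.3 CPM), FOXO3 (73.8 ± 12.3 CPM), IRS2 (58.0 ± 23.7 CPM) and AKT1 (50.7 ± 9.16 CPM) came next. INSR (33.1 ± 11.8 CPM), IRS1 (22.6 ± 14.6 CPM) and AKT2 (15.2 ± 3.70 CPM) were the lowest. Every neighbouring pair in that order overlapped between cows, so the order of neighbours was not resolved. The counts behind these levels ranged from 75 to 534 per library for PIK3R1 and from 41 to 153 for AKT2, and IRS1 went down to 7 counts in the PPARδ agonist library of cow 576.

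**Figure D1:**
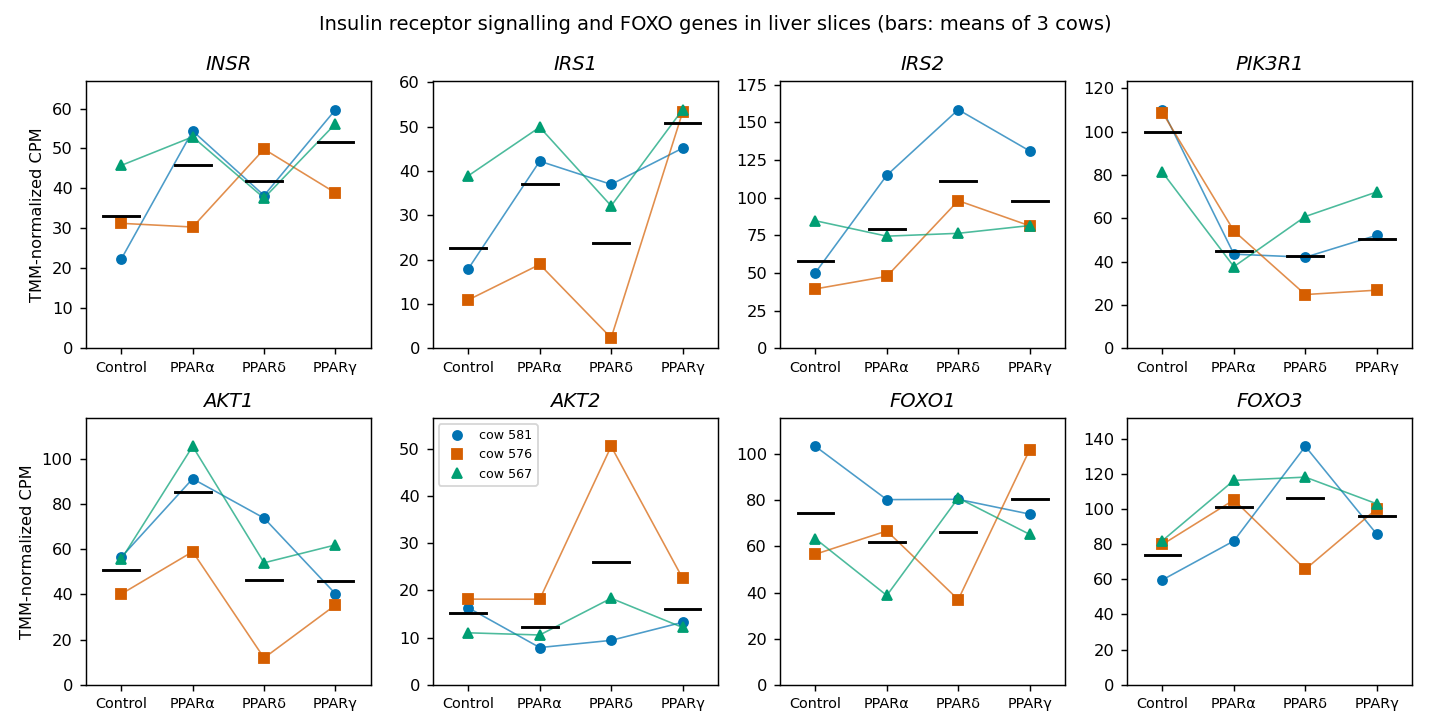
TMM-normalized CPM of the 8 genes (vertical axes, from 0) in control, PPARα, PPARδ and PPARγ agonist slices, with 1 point per library, a colour and line for each cow and a black bar for the mean of 3 cows. PIK3R1 is the gene whose 9 agonist libraries, at 24.8 to 72.2 CPM, all lie below its 3 control libraries, at 81.2 to 110.2 CPM.

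PIK3R1 was lower than the same cow's control in all 9 agonist libraries, at 0.227 to 0.888 of it, and FOXO3 was higher in 8 of 9, INSR and IRS1 in 7 of 9 and IRS2 in 6 of 9. AKT1, AKT2 and FOXO1 were higher in 5, 4 and 4 of 9. None of the 8 genes passed the test in any of the 3 comparisons with control. Genes were called by edgeR's quasi-likelihood test where p stayed under 0.2, the study's threshold, after Benjamini-Hochberg adjustment over all genes. At that threshold 0.535% of all genes tested were called for the PPARα agonist, 0.308% for the PPARδ agonist and 0.631% for the PPARγ agonist, shares at which fewer than 1 of 8 genes would be called. At an unadjusted p under 0.05, edgeR counted 1 of the 8 for the PPARα agonist (PIK3R1), 2 for the PPARδ agonist (IRS2 and PIK3R1) and 1 for the PPARγ agonist (PIK3R1), beside 1562, 1551 and 1347 of all 19824 genes. DESeq2 called 0, 1 and 0 of the 8, where 1.64%, 2.68% and 1.92% of all genes were called. With the cow as a replicate block, which compares each agonist slice with slices of the same animal, edgeR called 0, 1 and 1 of the 8, where 2.68%, 2.03% and 2.86% of all genes were called. The genes called there were PIK3R1 with the PPARδ agonist (DESeq2 and the block) and IRS1 with the PPARγ agonist (the block). The median log2 fold change of the 8 genes was 0.45, 0.21 and 0.25 for the PPARα, PPARδ and PPARγ agonists, against 0.12, 0 and 0.08 for all genes tested. The 3 comparisons share the same 3 control libraries, so a chance high or low value in control enters all of them.

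**Figure D2:**
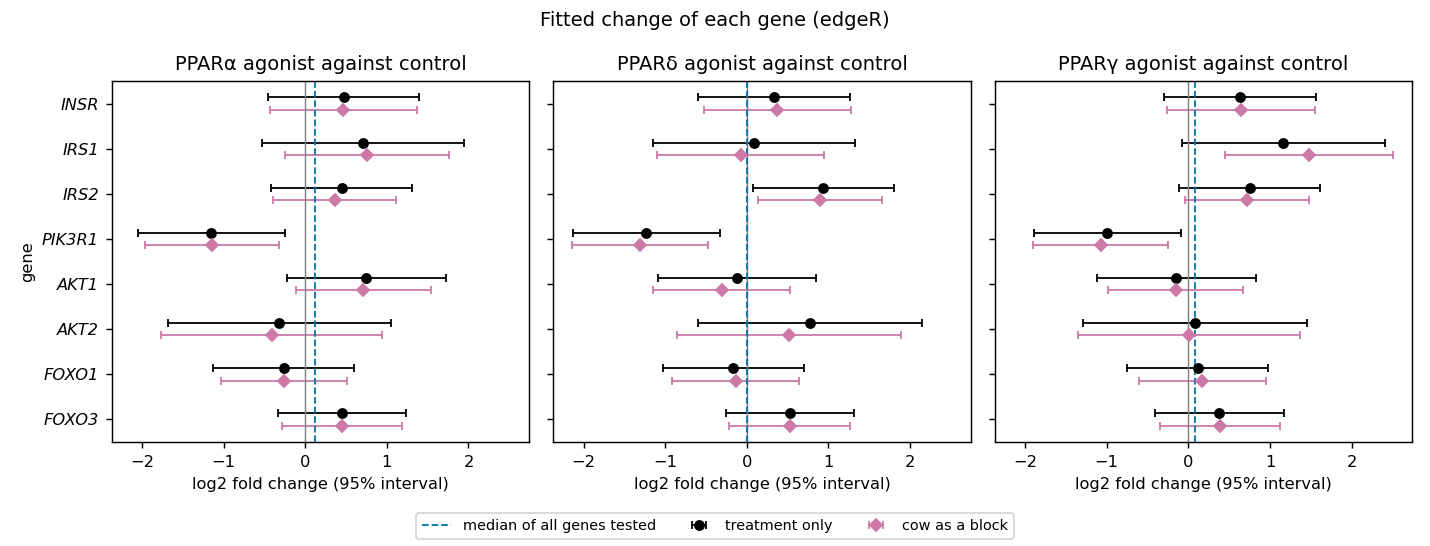
Log2 fold change of each gene against control (horizontal axes) with its 95% interval, fitted by edgeR with treatment alone (black circles) and with the cow as a block (pink diamonds). The dashed line is the median of all genes tested. The PIK3R1 intervals lie below 0 in all 3 panels, for example -2.05 to -0.25 for the PPARα agonist, and most other intervals span 0.

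INSR encodes the receptor itself. The gene overlaps a long non-coding RNA in the RefSeq annotation and the strand setting of the counting is not known here, so its counts are uncertain to that extent. Its level in control slices was 22.3 CPM in cow 581, 31.3 CPM in cow 576 and 45.8 CPM in cow 567. It was 54.4, 30.3 and 52.9 CPM with the PPARα agonist and 38.2, 49.8 and 37.6 CPM with the PPARδ agonist, in the same order of cows. With the PPARγ agonist it was 59.7, 38.9 and 56.2 CPM. Each agonist group overlapped control, although INSR was above the cow's own control in 7 of 9 agonist libraries and in all 3 cows with the PPARγ agonist. The log2 fold change with the PPARγ agonist was 0.64 (SE 0.46, 95% interval -0.30 to 1.57, edgeR adjusted p = 0.754), and with the PPARα and PPARδ agonists it was 0.47 (SE 0.46) and 0.33 (SE 0.46). The largest gain was in cow 581, whose control was the lowest of all 12 libraries and stood on 56 counts.

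IRS1 and IRS2 dock PI3K at the activated receptor. The IRS1 locus also holds a microRNA gene, whose reads could not be set apart. IRS1 was 17.9, 10.9 and 38.9 CPM in the control slices of cows 581, 576 and 567, and 45.1, 53.2 and 53.8 CPM with the PPARγ agonist. The PPARγ agonist libraries thus all lay above control and were closer together than the control libraries were. Non-overlapping groups were found for 14.7% of all genes in this comparison. The fitted log2 fold change was 1.16 (SE 0.62, 95% interval -0.08 to 2.41, edgeR adjusted p = 0.744) without the block and 1.48 (SE 0.53, adjusted p = 0.184) with it. The call of IRS1 with the block was kept in 4 of 12 fits that each left out 1 library. It was lost without any 1 of the control slices, of the PPARα agonist slices of cows 581 and 567, of the PPARγ agonist slices of cows 581 and 576, or without the PPARδ agonist slice of cow 567 (edgeR adjusted p = 0.202 to 1). Within cows the gain was uneven, from 1.38-fold in cow 567 to 4.89-fold in cow 576, whose control held 39 counts.

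With the PPARα agonist IRS1 was 42.2, 18.9 and 49.9 CPM, higher than the cow's own control in 3 of 3 cows but overlapping control as a group (log2 fold change 0.71, SE 0.61, edgeR adjusted p = 0.752). With the PPARδ agonist it was 37.0, 2.31 and 32.1 CPM. The lowest of these is the library of cow 576 described above. The log2 fold change of IRS1 was 0.085 (SE 0.61) with that library and 0.59 (SE 0.49, edgeR adjusted p = 0.691) without it. With the cow as a block it was -0.074 (SE 0.52) with that library and 0.50 (SE 0.45, edgeR adjusted p = 0.948) without it. Its sign was reversed in 19 of 36 alternatives, so no direction was set.

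IRS2, which in mouse liver is the substrate most active in fasting, was 50.1, 39.3 and 84.7 CPM in control slices. With the PPARδ agonist it was 158.5, 98.0 and 76.3 CPM, and with the PPARγ agonist 131.1, 81.3 and 81.5 CPM. Cows 581 and 576 were thus higher with both agonists, by 2.07 to 3.16-fold, whereas in cow 567 IRS2 was 0.901 and 0.962 of control, and each group overlapped control. The log2 fold changes were 0.93 (SE 0.43, 95% interval 0.07 to 1.80, edgeR adjusted p = 0.611) with the PPARδ agonist and 0.75 (SE 0.43, adjusted p = 0.744) with the PPARγ agonist. With the PPARα agonist IRS2 was 114.9, 47.7 and 74.4 CPM, a log2 fold change of 0.44 (SE 0.42, edgeR adjusted p = 0.774).

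PIK3R1 encodes p85α, with its shorter forms, the regulatory subunit that holds the catalytic subunit of PI3K stable and inactive until it binds a phosphorylated IRS protein. It was 110.2, 108.8 and 81.2 CPM in the control slices of cows 581, 576 and 567. With the PPARα agonist it was 43.4, 54.2 and 37.6 CPM, and with the PPARδ agonist 42.0, 24.8 and 60.8 CPM. With the PPARγ agonist it was 52.2, 26.8 and 72.2 CPM. All 9 agonist libraries were below every control library, and each was below the control of its own cow, at 0.227 to 0.888 of it. The 3 cows were close together with the PPARα agonist, at 0.394 to 0.498 of control, and further apart with the PPARδ and PPARγ agonists, where cow 576 was lowest and cow 567 nearest to its control. Non-overlapping groups were found for 14.1% of all genes in the PPARα agonist comparison and for 9.36% in the PPARδ agonist comparison, so within any 1 comparison this pattern was not rare. All 9 agonist libraries lay on 1 side of the 3 control libraries for 1.88% of all genes, and among the 8 genes for PIK3R1 alone.

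The fitted log2 fold changes of PIK3R1 for the PPARα, PPARδ and PPARγ agonists were -1.15 (SE 0.45, edgeR adjusted p = 0.504), -1.23 (SE 0.45, adjusted p = 0.482) and -0.99 (SE 0.45, adjusted p = 0.695). With the cow as a block they were -1.14 (edgeR adjusted p = 0.212), -1.31 (adjusted p = 0.133) and -1.07 (adjusted p = 0.309), so that PIK3R1 fell at the threshold with the PPARδ agonist only in that fit and in DESeq2 (adjusted p = 0.181). The PPARδ agonist call of PIK3R1 with the block was kept in 6 of 12 fits that each left out 1 library. It was lost without the control slice of cow 581 or 576, the PPARα agonist slice of cow 581, the PPARδ agonist slice of cow 581 or 576, or the PPARγ agonist slice of cow 567 (edgeR adjusted p = 0.217 to 0.593). Without the outlying PPARδ agonist library of cow 576 the PPARδ value of PIK3R1 was -0.98 (SE 0.44, edgeR adjusted p = 0.471). With the block it was then -1.04 (edgeR adjusted p = 0.352). A contrast of the mean of the 3 agonists with control, chosen after the values of PIK3R1 had been seen, gave -1.12 (SE 0.34, edgeR adjusted p = 0.238) where 0.651% of genes were called, and -1.17 (SE 0.32, adjusted p = 0.0236) with the block, where 3.26% were. Under the alternatives this contrast passed the threshold in 21 of 35, more often with the block than without it. Those alternatives refit largely the same libraries, so their count is not independent support. The call with the block was lost without the control slice of cow 581 (-1.11, edgeR adjusted p = 0.483), without that of cow 576 (-0.93, adjusted p = 0.366) and without all slices of cow 581 (-1.13, adjusted p = 0.769). Without the PPARδ agonist library of cow 576 the contrast was -1.06 without the block (edgeR adjusted p = 0.0695), and without that library the PPARα agonist comparison, which uses it only for the spread, passed the threshold at -1.16 (adjusted p = 0.138).

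Depth, RN18S1 and markers of other cells were set beside PIK3R1. The PPARγ agonist libraries of cows 581 and 567, at 3814770 and 3675309 counts, lay within the depth of the control libraries. PIK3R1 was at 52.2 and 72.2 CPM in them, 0.473 and 0.888 of the cow's own control. Leaving RN18S1 out of the table gave -1.13, -1.22 and -0.96 for the 3 agonists. Of all genes, edgeR called 0.535%, 0.308% and 0.631% for the PPARα, PPARδ and PPARγ agonists, and 2.68%, 2.03% and 2.86% with the block. Macrophage and Kupffer cell markers summed to 446.6 to 914.7 CPM in control, 110.2 to 295.7 CPM with the PPARδ agonist and 138.1 to 327.8 CPM with the PPARγ agonist, with 2 and 1 of 10 called lower by edgeR, and 5 and 4 with the block. With the PPARα agonist they summed to 281.9 to 1557 CPM, with 1 of 10 called lower and a list median log2 fold change of -0.46. Their median sum of 444.9 CPM lay below every control library, and only the highest PPARα agonist library lay above the lowest control. Endothelial markers summed to 395.5 to 639.8 CPM in control, 182.8 to 536.0 CPM with the PPARα agonist, 336.9 to 472.3 CPM with the PPARδ agonist and 163.5 to 238.4 CPM with the PPARγ agonist, with none of 8 called by edgeR. With the block, 2, 1 and 2 of the 8 were called lower, PECAM1 with each agonist. The median log2 fold changes of the 8 markers, without the block, were -0.81, -0.30 and -1.36 for the PPARα, PPARδ and PPARγ agonists. PECAM1, an adhesion molecule of endothelial cells that was named after its values were seen, was 231.7 to 339.1 CPM in control, 77.1 to 265.3 CPM with the PPARα agonist, 47.9 to 238.9 CPM with the PPARδ agonist and 68.1 to 142.7 CPM with the PPARγ agonist. Its log2 fold changes were -1.07, -1.11 and -1.57 (edgeR adjusted p = 0.586, 0.572 and 0.239, and 0.0353, 0.0282 and 0.000417 with the block). No macrophage or endothelial marker was at 0 throughout a group. Lymphocyte markers summed to 78.1 to 132.1 CPM in control, 73.7 to 130.3 CPM with the PPARα agonist, 28.4 to 70.1 CPM with the PPARδ agonist and 15.4 to 23.9 CPM with the PPARγ agonist, with 0, 0 and 1 of 10 called lower by edgeR and MS4A1 at 0 in control. Stellate cell and fibroblast markers summed to 336.6 to 1215 CPM in control and 129.7 to 219.9 CPM with the PPARγ agonist, with 1 of 8 called lower, and overlapped control with the other agonists. The part of depth or of these cells in the level of PIK3R1 was not tested.

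Ratios between genes of the same library do not depend on the scaling. The ratio of IRS2 to PIK3R1 counts was 0.455, 0.362 and 1.04 in the control slices of cows 581, 576 and 567. In PPARα agonist slices it was 2.65, 0.880 and 1.98, in PPARδ agonist slices 3.77, 3.96 and 1.25, and in PPARγ agonist slices 2.51, 3.04 and 1.13. It was therefore above the cow's own control in 9 of 9 agonist libraries, by the least in cow 567. PIK3R1 alone was below the cow's own control in all of these, so the count for the ratio is not a separate result. In cow 567 IRS2 itself was 0.879, 0.901 and 0.962 of control with the PPARα, PPARδ and PPARγ agonists. The ratio of PIK3R1 to PIK3CA, the gene of its catalytic partner p110α, was 2.02, 1.29 and 0.941 in control slices and 0.380 to 1.74 in agonist slices. It was below the cow's own control in 7 of 9 agonist libraries and above it in cow 576 with the PPARδ agonist (1.74) and cow 567 with the PPARγ agonist (1.37). PIK3CA was named after its values were seen, and its own log2 fold changes were -0.30, -0.39 and -0.25 (SE 0.47 each).

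AKT1 and AKT2 encode the kinases, AKT2 being the form most tied to insulin action on glucose. AKT1 was 56.5, 40.2 and 55.5 CPM in control slices and 91.2, 58.9 and 105.6 CPM with the PPARα agonist. All 3 PPARα agonist libraries lay above control, by 1.47 to 1.90-fold within cows, where 14.1% of all genes did not overlap. The log2 fold change was 0.75 (SE 0.48, 95% interval -0.22 to 1.72, edgeR adjusted p = 0.681). The libraries of cows 581 and 567 are also the deepest of the 12 and belong to the 3 marked libraries, and without those 3, which leaves 1 PPARα agonist library, it was 0.26.

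With the PPARδ agonist AKT1 was 73.8, 11.9 and 54.0 CPM, and with the PPARγ agonist 40.3, 35.3 and 61.9 CPM, both overlapping control. The log2 fold changes were -0.12 (SE 0.48) and -0.15 (SE 0.48), and the former was 0.32 (SE 0.42) without the PPARδ agonist library of cow 576. AKT2 was 16.3, 18.1 and 11.01 CPM in control slices, 7.89, 18.1 and 10.5 CPM with the PPARα agonist and 13.2, 22.6 and 12.1 CPM with the PPARγ agonist. These groups overlapped. With the PPARδ agonist AKT2 was 9.41, 50.5 and 18.3 CPM, and its highest value was again in the library of cow 576, so that the log2 fold change of 0.77 (SE 0.68, edgeR adjusted p = 0.737) became -0.16 (SE 0.64) without it.

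FOXO1 was 103.4, 56.7 and 63.4 CPM in control slices. It was 80.3, 66.8 and 38.8 CPM with the PPARα agonist, 80.5, 37.0 and 81.0 CPM with the PPARδ agonist and 74.0, 102.0 and 65.3 CPM with the PPARγ agonist. All groups overlapped, and the log2 fold changes were the smallest of the 8 genes taken over the 3 agonists, at -0.26, -0.17 and 0.11 (SE 0.43 each, edgeR adjusted p = 0.906 to 1). Without the PPARδ agonist library of cow 576 the PPARδ value of FOXO1 was 0.10 (0.18 with the block), of the opposite sign. The 95% interval with the PPARα agonist, -1.13 to 0.60, still includes a halving of the level.

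FOXO3, a relative that shares many targets with FOXO1, was 59.7, 79.8 and 82.0 CPM in control slices and 85.7, 100.03 and 102.9 CPM with the PPARγ agonist. These PPARγ agonist libraries all lay above control, by 1.25 to 1.44-fold within cows, where 14.7% of all genes did not overlap. With the PPARα agonist FOXO3 was 81.8, 105.1 and 116.2 CPM, also above the cow's own control in 3 of 3 cows, by 1.32 to 1.42-fold, and overlapping control as a group by the library of cow 581. With the PPARδ agonist it was 135.6, 65.7 and 118.1 CPM, lower than control in cow 576 alone. Without that library the PPARδ log2 fold change of FOXO3 was 0.76 (SE 0.38, edgeR adjusted p = 0.572). FOXO3 was thus above the cow's own control in 8 of 9 agonist libraries, yet its log2 fold changes of 0.45, 0.53 and 0.38 (SE 0.39 each) did not pass the test (edgeR adjusted p = 0.752, 0.683 and 0.883).

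**Figure D3:**
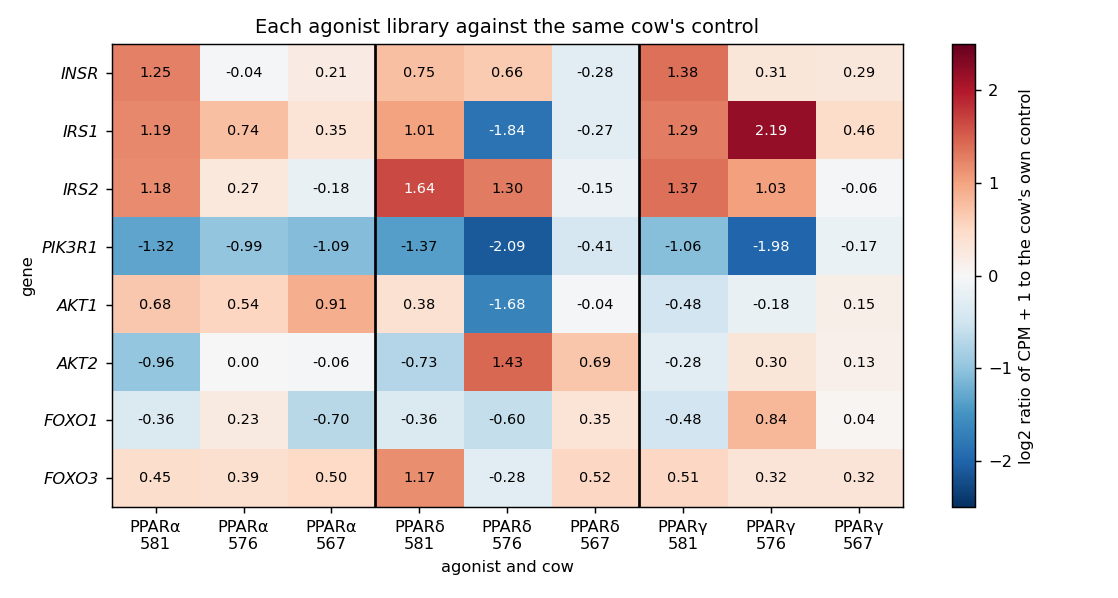
Log2 ratio of each agonist library to the control library of the same cow, after 1 CPM was added, with genes in rows and the 3 agonists and 3 cows in columns (red higher, blue lower). The PIK3R1 row is below 0 in all 9 columns, and the column of cow 576 with the PPARδ agonist holds the lowest IRS1 and AKT1 values and the highest AKT2 value.

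The agonists were also set against each other. WY-14643 and rosiglitazone were both used at 100 µM. Between them edgeR called none of the 8 genes, where 0.338% of all genes were called, and the unadjusted p was under 0.05 for 0 of the 8 and 865 of all genes. Of the 8 genes AKT1 had the largest difference, -0.90 (PPARγ minus PPARα agonist, log2, SE 0.48, 95% interval -1.87 to 0.08, edgeR adjusted p = 0.979). PIK3R1 differed by 0.16 (95% interval -0.73 to 1.05), which leaves room for either agonist to have the lower level. GW-501516 was used at 50 µM, so its dose is not matched to the others. Against it 0 of the 8 genes were called for the PPARγ agonist, with 0.0757% of all genes called, and 0 of 8 in the comparison with the PPARα agonist, with 0.156% of all genes called. The unadjusted p was under 0.05 for none of the 8 genes in these 2 comparisons, against 788 and 1045 of all genes, and DESeq2 called none of the 8 in any of the 3. With the cow as a block edgeR also called none of the 8. Its unadjusted p was then under 0.05 for AKT1 (PPARγ minus PPARα agonist, -0.87), IRS1 (PPARγ minus PPARδ, 1.55) and AKT1 (PPARδ minus PPARα, -1.02). That held for 1024, 923 and 1241 of all genes. Without the PPARδ agonist library of cow 576 the latter 2 differences were 0.82 and -0.56.

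Cow and treatment took different shares of the variance of log2 CPM in the 12 libraries. For PIK3R1 treatment held 60.0% and cow 8.13%. For AKT2 cow held 54.0% and treatment 19.4%, and for FOXO1 treatment held 13.5% and cow 24.03%. The medians over the 8212 genes with a mean of at least 50 counts were 32.2% for treatment and 19.5% for cow. The treatment share of PIK3R1 was above that of 90.9% of those genes and the highest of the 8, and the cow share of AKT2 was the highest of the 8.

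The genes most like each member were sought among 8211 genes with a mean of at least 50 counts, by Pearson's r of log2 CPM over the 12 libraries after the mean of each cow was removed. PIK3R1 was most like the transcription factor gene ZFHX3 (r = 0.93) and MFAP1 (r = 0.93), a spliceosome component. INSR was most like PPP1R7 (r = 0.98) and NOL7 (r = 0.95), and IRS1 most like the cationic amino acid transporter SLC7A2 (r = 0.97) and BEND7 (r = 0.97). For IRS2 they were SLC7A5 (r = 0.95), which carries large neutral amino acids, and TEAD3 (r = 0.95). For AKT1 they were TM9SF2 and TOR3A (r = 0.97 each), and for AKT2 CCP110 and SEL1L (r = 0.97 each). FOXO1 and FOXO3 had less close partners, CDC37L1 (r = 0.91) and DCBLD2 (r = 0.90) for FOXO1 and TTC27 (r = 0.91) and GDI2 (r = 0.90) for FOXO3. These are the highest of 8211 values in 12 libraries that share their depth and treatment, and the library of cow 576 with the PPARδ agonist is an extreme point for IRS1, AKT1 and AKT2.

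The rest of the pathway was described by lists chosen with earlier results of these data known. Of 20 other genes of the PI3K and AKT pathway, edgeR called none with any agonist, and their medians were 0.16, -0.11 and 0.11 beside 0.12, 0 and 0.08 for all genes. The 2 with the smallest p were PHLPP1 and PHLPP2, phosphatases that remove the activating phosphate of AKT. PHLPP1 was 10.3 to 11.4 CPM in control slices and 36.1 to 59.3 CPM with the PPARδ agonist (log2 fold change 2.06, SE 0.61, edgeR adjusted p = 0.282, and 0.0637 with the block). PHLPP2 was higher than the cow's own control in 9 of 9 agonist libraries, with a log2 fold change of 1.52 (SE 0.59, edgeR adjusted p = 0.567, and 0.0468 with the block) for the PPARγ agonist.

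Of 21 adaptors and inhibitors of the receptor, edgeR called 2 higher with the PPARδ agonist and none with the other agonists. With the block it called 1, 3 and 1 for the PPARα, PPARδ and PPARγ agonists (SOCS3, then TRIB3, SOCS3 and SOCS1, then TRIB3), and DESeq2 called 0, 3 and 1, which were the same genes for the PPARδ and PPARγ agonists. Of all genes, edgeR called 0.535%, 0.308% and 0.631% for the 3 agonists, and 2.68%, 2.03% and 2.86% with the block. DESeq2 called 1.64%, 2.68% and 1.92%. SOCS1 was named after its values were seen. TRIB3, a pseudokinase that binds AKT and holds back its activation, was 35.0, 29.02 and 66.6 CPM in control slices and 301.2, 349.5 and 177.9 CPM with the PPARδ agonist. It rose by 2.66 on the log2 scale (SE 0.43, edgeR adjusted p = 0.00115) and did not overlap control, where 9.36% of all genes did not. With the PPARγ agonist TRIB3 was 123.5, 128.3 and 100.0 CPM, a log2 fold change of 1.43 (SE 0.42, edgeR adjusted p = 0.215, and 0.00672 with the block). SOCS3, which damps cytokine receptors and binds the insulin receptor, was 5.97, 29.6 and 41.9 CPM in control slices and 210.9, 34.7 and 86.9 CPM with the PPARδ agonist. The groups overlapped. SOCS3 was 106.4, 90.6 and 47.1 CPM with the PPARα agonist, a log2 fold change of 1.65 (SE 0.54, edgeR adjusted p = 0.335, and 0.0292 with the block). Its rise with the PPARδ agonist of 2.10 (SE 0.55, edgeR adjusted p = 0.172) was 1.23 and not called without the PPARδ agonist library of cow 581 (adjusted p = 0.596). The call was also lost when the control slice of cow 581 was dropped (1.62, edgeR adjusted p = 0.740) or that of cow 576 (2.17, adjusted p = 0.439).

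Of 15 genes tested from a list of AKT substrates and of genes that act after them, such as RHEB, none was called by edgeR. RHEB, the GTPase that switches on mTORC1, was 9.55, 7.81 and 5.38 CPM in control slices and 109.0, 9.54 and 63.9 CPM with the PPARα agonist (log2 fold change 3.01, SE 0.89, edgeR adjusted p = 0.227, and 0.0331 with the block). The high values are those of the 2 deepest libraries. TBC1D4, through which AKT releases glucose transporters in muscle and fat, was 101.1, 36.3 and 48.5 CPM in control slices and 15.7, 12.4 and 22.6 CPM with the PPARγ agonist. It was below the cow's own control in 9 of 9 agonist libraries, with a log2 fold change of -1.87 (SE 0.67, edgeR adjusted p = 0.454, and 0.060 with the block) for the PPARγ agonist.

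Of 20 FOXO targets tested, IGFBP1 rose with all 3 agonists and SOD2 with the PPARα agonist, where 0.535%, 0.308% and 0.631% of all genes were called. The list medians were -0.05, 0.39 and -0.01. IGFBP1, a secreted binding protein of insulin-like growth factors and a classical FOXO1 target that insulin represses, was 73.6, 49.4 and 102.3 CPM in control slices. It was 705.5, 107.2 and 695.7 CPM with the PPARα agonist, 712.1, 377.6 and 174.3 CPM with the PPARδ agonist and 530.5, 876.2 and 248.9 CPM with the PPARγ agonist. All 9 agonist libraries lay above all 3 control libraries, and 1.88% of all genes had all 9 on 1 side of control. The log2 fold changes were 2.74 (SE 0.51, edgeR adjusted p = 0.0139), 2.49 (SE 0.50, adjusted p = 0.0288) and 2.88 (SE 0.51, adjusted p = 0.0047). That for the PPARα agonist was 0.56 (edgeR adjusted p = 1) without the 3 marked libraries. Dropping the control slice of cow 581 ended the calls for the PPARα agonist (2.67, edgeR adjusted p = 0.414) and the PPARδ agonist (2.46, adjusted p = 0.430), and dropping that of cow 576 ended the latter (2.24, adjusted p = 0.248).

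SOD2, the mitochondrial superoxide dismutase, was 68.0, 78.4 and 43.1 CPM in control slices and 152.1, 686.3 and 94.3 CPM with the PPARα agonist. Its rise of 2.30 (SE 0.54, edgeR adjusted p = 0.0838) rested on cow 576 and was 0.96 (adjusted p = 0.408) without that PPARα agonist library. The call was also lost when the control slice of cow 581, 576 or 567 was dropped (2.35, 2.46 and 2.08, edgeR adjusted p = 0.591, 0.245 and 0.275). With the PPARα agonist neutrophil markers summed to 52.5 to 2146 CPM (median 89.9 CPM), against 78.3 to 106.0 CPM in control. Only the highest PPARα agonist library thus lay above control. Of 7 markers 4 were called higher by edgeR, 3 with the block and none by DESeq2, where 0.535%, 2.68% and 1.64% of all genes were called. The part of these markers in the level of SOD2 was not tested.

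Of 7 genes that insulin induces in liver, none was called by edgeR, and their medians were 0.81, 0.20 and 0.68. SCD, the desaturase that makes oleic acid, was higher than the cow's own control in 9 of 9 agonist libraries, by 1.49 to 5.95-fold. Its log2 fold changes were 1.82, 1.96 and 1.57 (SE 0.61 each, edgeR adjusted p = 0.355, 0.321 and 0.567), and with the block the adjusted p were 0.032, 0.00863 and 0.0299. MLXIPL, the carbohydrate-responsive factor ChREBP, was 14.7 to 20.9 CPM in control slices and 17.4 to 72.8 CPM with the PPARγ agonist (log2 fold change 1.15, SE 0.68, edgeR adjusted p = 0.744).

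**Figure D4:**
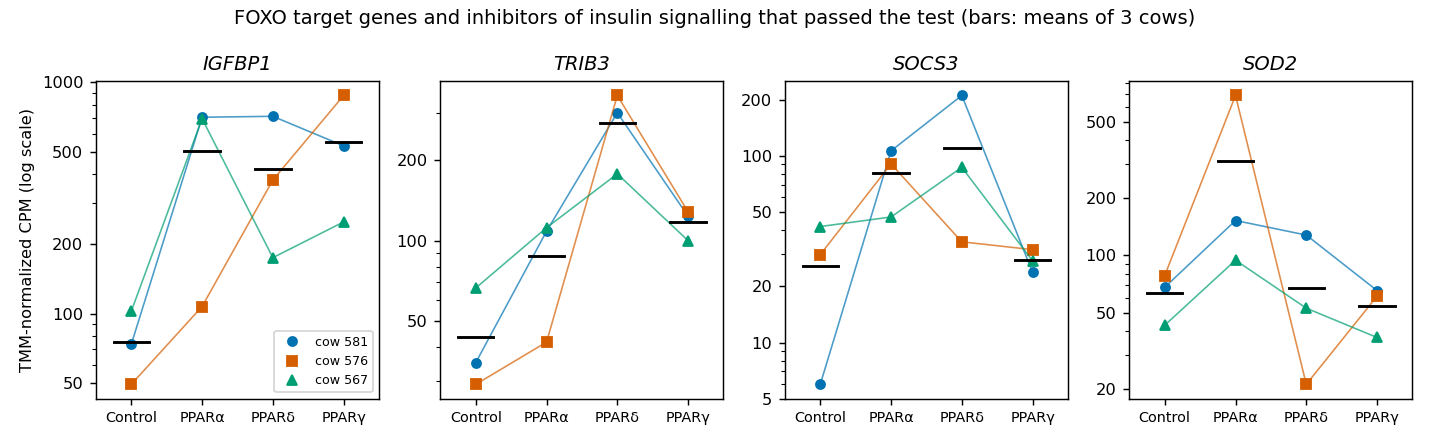
TMM-normalized CPM on a log axis of the 4 genes of the pathway lists that passed the edgeR test with at least 1 agonist, with 1 point per library, a colour and line for each cow and a black bar for the mean of 3 cows. IGFBP1 is above control in all 9 agonist libraries, TRIB3 is highest with the PPARδ agonist (177.9 to 349.5 CPM), and the SOD2 mean with the PPARα agonist is raised by the 686.3 CPM of cow 576.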

How the data were processed

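RNA was sequenced from 16 libraries of liver slices, 4 cows by 4 treatments. The deposited table holds raw read counts for each gene, as whole numbers. The authors prepared QuantSeq 3' libraries and mapped the trimmed reads to ARS-UCD1.2, and the submitters' processing notes name Trimmomatic 0.39, STAR 2.7.1, SAMtools 1.0, StringTie 2.0 and DESeq2 1.30.1. The sources used here do not give the strand setting of the counting. In the RefSeq annotation of ARS-UCD2.0, used for names and neighbours only, all 8 genes were found, INSR overlaps a long non-coding RNA and IRS1 a microRNA, so their counts could include reads of those. The 4 tallies of reads outside genes (unmapped, multimapping, without a gene, ambiguous) entered neither library sizes nor tests. They held 3.69 to 17.1%, 4.93 to 6.75%, 29.1 to 54.1% and 0.380 to 1.40% of the reads of the 12 libraries.

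Counts were analysed in R 4.3.3 with edgeR 4.0.16 (TMM, glmQLFit with legacy = TRUE, glmQLFTest, treatment as the only term, all 4 groups sharing 1 estimate of the spread). DESeq2 1.42.0, the cow as a block, other scalings, filters and thresholds, cow 574 included, and each library or cow left out were the alternatives. P-values were adjusted over all 19824 genes within a comparison. The supplementary tables of the study hold cows 581, 576 and 567, which is why cow 574 was taken as the animal left out. The same cow number marks slices of the same animal, from the labels. Deviations from the group means correlated at -0.03 to 0.28 (median 0.11) between libraries of the same cow and at -0.28 to 0.12 (median -0.06) between different cows, over 18 and 36 pairs. In the fit with the block, edgeR's prior degrees of freedom were infinite, so that all genes of like abundance shared 1 spread. Without the block, p-values rest on the spread between the 3 cows within groups, pooled over the 4 groups and drawn toward that of other genes (prior degrees of freedom 32.1). With the block, differences between cows are removed. Those p-values rest on the spread left within cows, as shared by genes, and not on the spread of the single gene between cows. Log2 ratios to a cow's own control used CPM plus 1, and variance shares are sums of squares of log2 CPM (prior count 2). No 2 libraries had identical counts. The fits were tested on simulated data.

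The 8 genes, the pathway lists and the marker lists were chosen with earlier results of these data known. All 8 genes are named. Of each pathway list the called genes and the 2 with the smallest p are named, and for each of the 8 the 2 most correlated genes. Not analysed here were protein phosphorylation, the other treatments of the study, and the authors' own fold changes. The list of FOXO targets holds G6PC under its older and newer symbol, and the table lists it as G6PC, so it was tested once. KLF9 and FOXO6 did not pass the filter.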

Additional observations from a re-analysis of the deposited data

How the results depend on the processing

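With 3 cows the SE of the 8 genes was 0.39 to 0.68 (log2), and 23 of 24 intervals against control held a doubling or halving. AKT2 rested on 41 to 153 counts per library, AKT1 on as few as 36 and IRS1 on as few as 7. The replicate block (cow) called 1 of the 8 for the PPARδ agonist and 1 for the PPARγ agonist, and DESeq2 called 1 for the PPARδ agonist. Each library or cow left out, with or without the block, gave 0 to 2 of the 8 for each agonist against control, 0 to 1 for the PPARδ agonist against the PPARα agonist and 0 to 1 for the PPARγ against the PPARδ agonist. Counts of all genes called (PPARα, PPARδ, PPARγ agonist) moved from 106, 61 and 125 to 41, 21 and 71 at a threshold of 0.1, 16, 12 and 29 at 0.05, 532, 402 and 567 with the block, 326, 532 and 380 in DESeq2, 408, 340 and 332 with no filter on low counts, 0, 3 and 9 with filterByExpr, 0, 0 and 0 with cow 574 included, and 143, 80 and 176 with cow 574 included and the block. Without the 3 marked libraries they were 308 and 461 for the PPARδ and PPARγ agonists, and with a library or cow left out 0 to 3032, 7 to 1001 and 13 to 1254. Without the control library of cow 581 edgeR called 0, 7 and 13. RLE size factors moved the median of all genes by -0.12 for the PPARα agonist and by less for the others. The sign was the same under all 36 alternatives for PIK3R1 and FOXO3 with each agonist, INSR and IRS2 with the PPARδ and PPARγ agonists, IRS1 with the PPARγ agonist and AKT1 with the PPARα agonist. PIK3R1 passed the threshold in 7, 8 and 2 of the 36. Log2 fold changes of genes that were not called turned sign as follows, the cause not being tested. Without the 3 marked libraries, INSR, IRS1, IRS2 and AKT2 were -0.086, -0.22, -0.24 and 0.31 with the PPARα agonist, and IRS1 was -0.39 with the PPARδ agonist. IRS1 with the PPARδ agonist was -0.074 with the block, -0.10 with cow 574 and -0.27 with both. FOXO1 with the PPARδ agonist was 0.029 with cow 574 and 0.13 with the block as well, and AKT2 with the PPARγ agonist was -0.087 with both. With a library or cow left out the ranges that cross 0 were -0.51 to 0.015 (FOXO1, PPARα), -0.83 to 0.74 (IRS1, PPARδ), -0.85 to 0.32 (AKT1, PPARδ), -0.16 to 1.18 (AKT2, PPARδ), -0.57 to 0.18 (FOXO1, PPARδ), -0.41 to 0.10 (AKT1, PPARγ), -0.25 to 0.48 (AKT2, PPARγ) and -0.19 to 0.47 (FOXO1, PPARγ). Adding 0.5 or 5 CPM instead of 1 moved no mean log2 ratio to a cow's own control by more than its SD.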

Other observations

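Cow 574 was outside the tests. Its libraries held 772012 to 970406 counts in genes. Reads without a gene made up 79.6 to 84.3% of them, against 29.1 to 54.1% in the 12 tested libraries. The CPM of cow 574 were scaled together with all 16 libraries. PIK3R1 was at 162.3 CPM in its control slice (216 counts) and at 123.6, 136.7 and 146.2 CPM with the PPARα, PPARδ and PPARγ agonists, below its own control in 3 of 3 agonist libraries. IRS2 was at 27.8 CPM in its control slice and at 38.5, 42.0 and 47.4 CPM with the agonists. FOXO3 was at 42.1 CPM in control and 37.7, 57.3 and 56.3 CPM with the agonists. INSR was at 24.8 CPM in control and 20.9, 56.5 and 34.6 CPM with the agonists, and IRS1 at 30.1 CPM in control and 19.3, 17.6 and 29.6 CPM. FOXO1 was at 33.8 CPM in control and 45.7, 64.2 and 48.4 CPM. AKT1 was at 19.5 CPM in control (26 counts) and 12.04, 18.3 and 12.8 CPM with the agonists, below control with each. AKT2 was at 10.5 CPM in control (14 counts) and 3.21, 7.64 and 7.90 CPM with the agonists. With cow 574 included and no block, the log2 fold changes of PIK3R1 were -0.87, -0.82 and -0.64 (edgeR adjusted p = 1 for each), and with the block -0.99, -1.04 and -0.84 (adjusted p = 0.465, 0.418 and 0.615).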
